A study of Mus musculus with 8 samples.

Results

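The open chromatin around Nr2f1 and Nr2f2, the genes of the COUP-TF nuclear receptors, was described in single-nucleus ATAC-seq counts from the mouse embryonic forebrain. Overlapping peaks from the 8 samples were joined, and each joined region, here a merged region, within 100 kb of the GRCm38 body of either gene was taken as an element. This gave 40 elements among 292532 merged regions, 17 for Nr2f1 and 23 for Nr2f2. The samples were wild-type (WT) tissue of the cortex (CTX) and of the medial, lateral and caudal ganglionic eminences (MGE, LGE, CGE; jointly GE), with 2 samples per region. They were labelled E12.5, apart from CTX replicate 2, labelled E14.5, so the spread between the CTX samples contains any effect of age. The labels do not say whether replicates came from separate litters or animals, and p-values therefore measure a spread between samples that may be technical.

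COUP-TFs are orphan nuclear receptors that bind DNA mainly as dimers on repeats of the core AGGTCA, and they act as repressors or activators depending on the partner. Nr2f1 encodes COUP-TFI, best known for patterning the cortex into areas along its anterior to posterior axis. Nr2f2 encodes COUP-TFII, used as a marker of the CGE and of the interneurons born there, with further expression in the MGE. ATAC-seq reads the opening of chromatin and not the transcript, and no RNA value was analysed here.

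The libraries held 3465 to 6845 nuclei, with 77387940 to 138873845 counts in peaks and a median of 14584 to 22210 counts per nucleus. Of the 28 pairs of libraries, each shared 15 to 56 barcodes, at most 1.17% of the smaller library. Peaks had been called in each sample alone, and LGE replicate 1 had the fewest (103633) and CGE replicate 2 the most (182638). Entries with an odd count made up 9.54% to 10.4% in every replicate 1 and 5.17% to 5.85% in every replicate 2, so libraries differed by replicate number, and a fit with that number as a block is given beside the calls it changes. The marker genes of the cortex, eminence and MGE lists called by edgeR fitted the labels of CTX and MGE. Of 5 cortex markers 2 (Emx1 and Neurod6) were higher in CTX, and of 6 eminence markers 4 (Dlx1, Dlx2, Gad1 and Gad2) were lower there. All 3 MGE markers (Nkx2-1, Lhx6, Lhx8) were lower in CGE than in MGE, and 2 of the 3 were lower in LGE. The CGE label had no such support. Its markers Prox1, Sp8 and Htr3a summed to 152 to 190 CPM (counts scaled to 1000000 counts in peaks of the sample) in CGE, 152 to 191 in LGE, 208 to 251 in MGE and 132 to 350 in CTX, with 0 of 3 called between CGE and LGE or MGE by edgeR or DESeq2. At an unadjusted p under 0.05, edgeR passed 0 of these against LGE and 1 against MGE (Prox1, lower in CGE). Htr3a, listed for CGE, was called by edgeR as higher in CTX than in GE (2.31 on the log2 scale, adjusted p = 0.0208). The LGE label had no called marker of its own either. The markers listed for LGE and CGE together (Ebf1, Isl1, Meis2) had 0 edgeR calls in any contrast. They summed to 829 to 923 CPM in LGE, 763 to 818 in CGE, 630 to 747 in CTX and 556 to 616 in MGE. Marker sums of other cell types were 102 to 145 CPM (endothelial), 109 to 152 (microglial), 24.7 to 35.5 (erythroid), 102 to 209 (mural or mesenchymal), 163 to 307 (hem and choroid plexus) and 365 to 519 (diencephalic). Of these lists edgeR called Cdh5 (endothelial) and Wnt3a (hem), both higher in CTX, and their part in the results was not tested. Counts were summed over all nuclei of a sample, so a smaller share of nuclei of a type and less opening in each nucleus cannot be told apart.

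Nr2f1 (ENSMUSG00000069171.14) lies on the minus strand at chr13:78188973-78199757 and Nr2f2 (ENSMUSG00000030551.14) on the minus strand at chr7:70351944-70366735. The protein-coding gene Fam172a (chr13:77702033-78166235, plus strand) ends downstream of Nr2f1, and 12 of the 17 Nr2f1 elements overlapped it. No other protein-coding gene lay within 100 kb of either member, while 8 further annotated genes near Nr2f1 and 6 near Nr2f2 were non-coding, pseudogene or unclassified annotations. Antisense to the 5′ part of the members lie A830082K12Rik at Nr2f1 and B130024G19Rik at Nr2f2, each running on into the upstream side, so counts there cannot be given to 1 gene.

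The 300 bases at the centre of the stretch under a peak in all 8 samples are shown for the 3 elements whose counts differed between regions outside the gene bodies. They are read from the plus strand of GRCm38.p6, and capitals mark matches on either strand to 3 motifs, AGGTCA (nuclear receptors), TAATTA (homeodomain proteins) and CAAGTG (NKX2 proteins).
Nr2f2 upstream, proximal (chr7:70381747-70382046): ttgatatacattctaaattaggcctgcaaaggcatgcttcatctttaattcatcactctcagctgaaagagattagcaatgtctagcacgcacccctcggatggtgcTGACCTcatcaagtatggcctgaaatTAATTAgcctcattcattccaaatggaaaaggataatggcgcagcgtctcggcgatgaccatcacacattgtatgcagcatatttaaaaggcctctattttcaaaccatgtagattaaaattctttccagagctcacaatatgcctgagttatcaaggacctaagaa
Nr2f2 upstream, distal (chr7:70424084-70424383): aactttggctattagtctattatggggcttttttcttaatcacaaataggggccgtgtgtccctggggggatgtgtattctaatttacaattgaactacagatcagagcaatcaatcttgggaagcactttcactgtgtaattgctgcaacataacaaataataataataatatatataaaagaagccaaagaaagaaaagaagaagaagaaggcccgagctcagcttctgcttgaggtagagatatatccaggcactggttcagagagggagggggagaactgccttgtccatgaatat
Fam172a intron near Nr2f1 (chr13:78100177-78100476): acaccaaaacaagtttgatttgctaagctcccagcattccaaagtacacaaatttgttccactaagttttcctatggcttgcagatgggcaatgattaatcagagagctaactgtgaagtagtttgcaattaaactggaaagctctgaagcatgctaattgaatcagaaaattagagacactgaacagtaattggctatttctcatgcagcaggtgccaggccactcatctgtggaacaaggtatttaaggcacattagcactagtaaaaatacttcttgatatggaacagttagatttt

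The proximal Nr2f2 element held 1 AGGTCA on the minus strand, which reads as TGACCT in the line shown, and 1 TAATTA. The distal element and the Fam172a element held 0 matches to the 3 motifs in these windows. Windows of the same length in all 68274 regions with a peak in every sample held AGGTCA in 13.0%, TAATTA in 10.5% and CAAGTG in 16.0%. None of the 3 windows overlapped an annotated exon. The proximal window lies in an intron of B130024G19Rik and Gm28258, the distal window in an intron of B130024G19Rik and Gm44532, and the last in an intron of Fam172a.

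Joined over the 8 samples, the peaks over both genes formed very broad elements, here called domains, whose full width rested on CGE replicate 2. The element over Nr2f1 (chr13:78159945-78214200) spanned 54256 bp, the widest of the 292532 merged regions, and reached 29028 bp beyond the 3′ end and 14443 bp beyond the 5′ end of the gene. It covered the last 6291 bp of Fam172a. The element over Nr2f2 (chr7:70323186-70372776) spanned 49591 bp and ranked 3, after the region over Notch1, a receptor gene of the Notch pathway. Among the 68274 regions with a peak in all 8 samples the median width was 1533 bp, 0.524% were wider than 10 kb and 15 were wider than 30 kb. Without the peaks of CGE replicate 2 the Nr2f1 domain fell into 3 pieces, with 39954 bp over the gene (rank 5 of 277253 merged regions). The Nr2f2 domain fell into 5 pieces, 3 of them over the gene body and the widest of those 11520 bp (rank 233). Leaving out any other library kept the Nr2f1 element at 54031 bp or more and the Nr2f2 element at 49591 bp, at rank 1 and at rank 2 or 3. The limits of both domains used below are thus set largely by a CGE sample. All annotated start sites of both members lay within these 2 domains, 6 for Nr2f1 and 6 for Nr2f2.

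How far a domain was called as one unbroken peak differed between samples. In CGE replicate 2 each domain was 1 peak, of 53877 bp over Nr2f1 and 49591 bp over Nr2f2, the first and second widest of the 182638 peaks of that library. Elsewhere the Nr2f1 domain was split into 2 to 14 peaks, and its widest peak still ranked between 3 and 57 among all peaks of its sample. The Nr2f2 domain was split into 6 to 14 peaks outside CGE replicate 2, with its widest peak at rank 43 to 481. LGE replicate 1 had the lowest coverage of both domains, 51.3% of the Nr2f1 domain and 38.2% of the Nr2f2 domain. That library also had the fewest peaks and the smallest summed peak length, 87.2 Mb against 107 to 168 Mb in the others, and the part of this in the domain coverage was not tested.

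**Figure D1:**
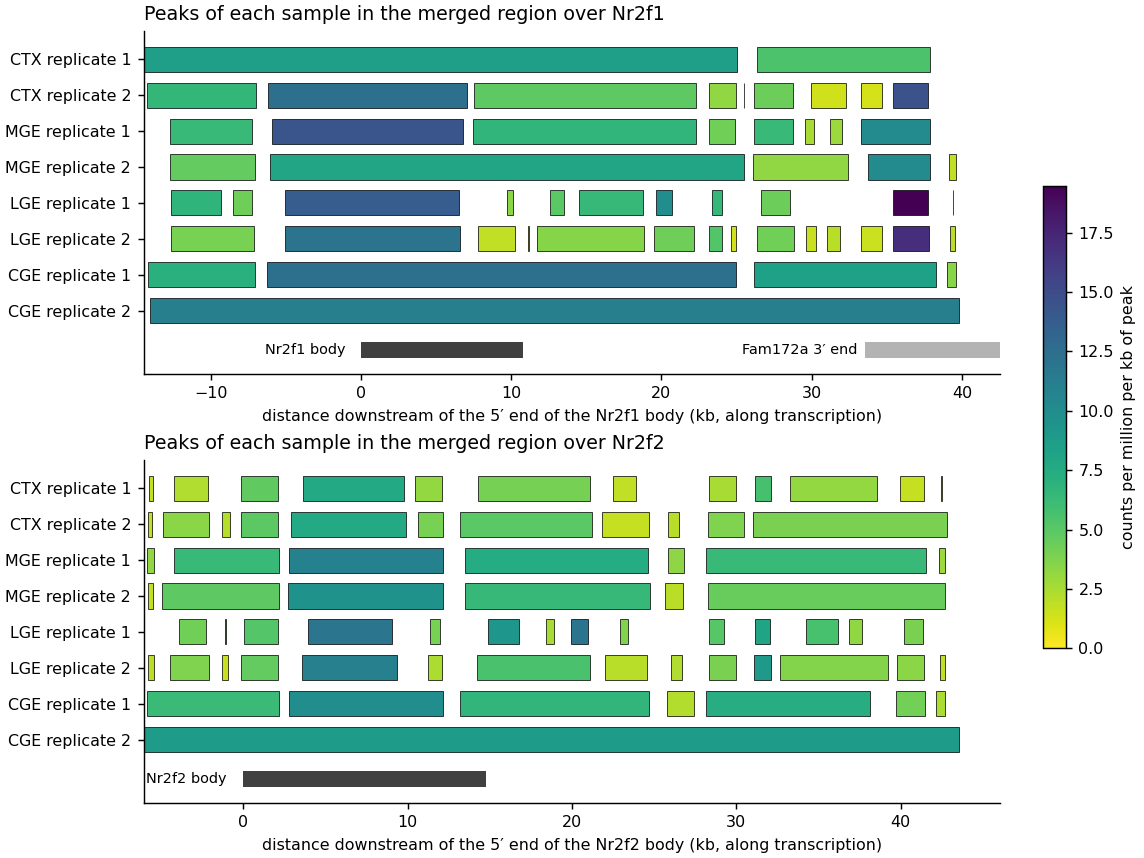
Peaks of each sample in the domains over Nr2f1 (top) and Nr2f2 (bottom), against the distance in kb downstream of the 5′ end of the gene, coloured by CPM per kb of peak. Each row is 1 sample; CGE replicate 2 has 1 peak in each domain, while LGE replicate 1 covers 51.3% and 38.2% of them.

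Within the Nr2f1 domain the gene's start region formed a core. In CTX replicate 2, MGE replicate 1 and both LGE samples the peak over the start sites was separate from its flanks, and it was 11.6 to 13.2 kb wide. This core held 163, 183, 159 and 140 CPM in these 4 samples, or 12.3, 14.4, 13.8 and 12.1 CPM per kb. In CTX replicate 1, MGE replicate 2 and CGE replicate 1 the peak over the same sites ran on for 39.5, 31.6 and 31.2 kb. The longer CGE replicate 1 peak held 12.3 CPM per kb, within the range of the short cores, whereas the CTX replicate 1 and MGE replicate 2 peaks held 8.58 and 8.02.

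The densest peak of the Nr2f1 domain was in several samples not at Nr2f1. In CTX replicate 2, MGE replicate 2 and both LGE samples it lay over the last part of Fam172a, 33.8 to 37.9 kb downstream of the 5′ end of Nr2f1. It was 2359 bp wide in LGE replicate 1 and 2393 bp in LGE replicate 2, with 19.5 and 16.9 CPM per kb against 13.8 and 12.1 over the Nr2f1 start sites in the same samples. In CTX replicate 2 it held 14.54 CPM per kb over 2377 bp. Peaks below 100 bp were left out of this ranking, which was made after the values were seen.

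In 6 of the 8 samples the densest peak of the Nr2f2 domain lay over internal start sites rather than at the 5′ end of the longest transcript. In LGE replicate 1 a 984 bp peak without a start site was marginally denser (11.98 against 11.91 CPM per kb), and CGE replicate 2 had 1 unbroken peak. The peak over the start site at chr7:70359921, 1 of 2 protein-coding start sites there, held 47.3 and 54.1 CPM in CTX. It held 102 and 89.8 CPM in MGE, 60.6 and 63.9 in LGE, and 93.6 in CGE replicate 1, where CGE replicate 2 had only the unbroken domain. Both CTX samples were below the 5 GE samples with a separate peak, and both LGE samples were below MGE and CGE replicate 1. Per kb the order changed, at 7.69 and 7.73 CPM per kb in CTX, 10.98 and 9.56 in MGE, 11.9 and 11.1 in LGE and 10.0 in CGE replicate 1. The CTX samples stayed lowest, and the LGE samples, with narrower peaks of 5.08 and 5.76 kb against 9.33 to 9.40 kb in MGE and CGE replicate 1, were no longer below MGE. At the 5′ end of the longest transcript a peak was called over the base itself in every sample except LGE replicate 1, whose peak of 2066 bp and 10.80 CPM ended just short of it. The peak was 2278 to 2285 bp wide in both CTX samples and LGE replicate 2, with 10.8 to 11.3 CPM, and 6369 to 8047 bp wide in both MGE samples and CGE replicate 1, with 34.6 to 50.5 CPM. Per kb it held 4.78 and 4.93 CPM in CTX and 4.71 in LGE replicate 2. MGE held 6.38 and 4.86 CPM per kb and CGE replicate 1 held 6.28, so MGE replicate 2 lay between the CTX samples.

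Summed over its peaks, the Nr2f1 domain held 540 and 600 CPM in the CGE samples, more than any other sample. CTX held 402 and 339 CPM, MGE 392 and 342, and LGE 291 and 265. The CTX and MGE values overlapped, and both LGE samples were lowest. Means were 570 ± 43.0 CPM in CGE, 370 ± 44.995 in CTX, 367 ± 35.1 in MGE and 278 ± 17.8 in LGE (SD, n = 2).

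The Nr2f2 domain held 307 and 437 CPM in CGE and 317 and 264 CPM in MGE, which overlapped each other. LGE held 143 and 178 CPM and CTX 128 and 183 CPM, also overlapping, and all 4 of these were below the MGE and CGE samples. Means were 372 ± 91.9 CPM in CGE, 290 ± 37.1 in MGE, 160 ± 24.3 in LGE and 156 ± 39.1 in CTX (SD, n = 2). MGE thus stood with CGE for Nr2f2 and with CTX for Nr2f1. The Nr2f2 to Nr2f1 ratio of domain CPM was 0.808 and 0.772 in MGE, 0.570 and 0.728 in CGE, 0.493 and 0.669 in LGE and 0.318 and 0.541 in CTX. Both MGE ratios were above the other 6, a comparison chosen after its values were seen, for which 2 against 6 samples allow no exact permutation p below 0.0714.

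Read per covered kb, the CGE against LGE, CGE against MGE and LGE against MGE differences were smaller, whereas LGE moved from below CTX to a higher mean for Nr2f1 and from level with CTX to above it for Nr2f2. For Nr2f1, CGE held 10.6 and 11.1 CPM per covered kb and LGE 10.4 and 6.82. LGE replicate 1 was thus close to CGE, while LGE replicate 2 was the lowest of the 8 samples. MGE held 9.06 and 7.13 and CTX 7.89 and 7.40 CPM per covered kb. For Nr2f2, CTX held 4.27 and 4.60 CPM per covered kb, below every GE sample, while CGE held 7.18 and 8.82, MGE 7.55 and 6.05 and LGE 7.55 and 5.35, which overlapped. Counts outside peaks were not part of the files, so a base not called as peak counts as 0 in the sums. The uncovered bases of each sample were also filled at the density of its least dense peak of at least 100 bp in the domain. This brought the CGE to LGE ratio of Nr2f1 from 2.05 to 1.75 and that of Nr2f2 from 2.30 to 1.76. The density of uncovered bases is not known, so the filled ratios are not corrected values. This filling was chosen after the data were seen and carries no test.

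**Figure D2:**
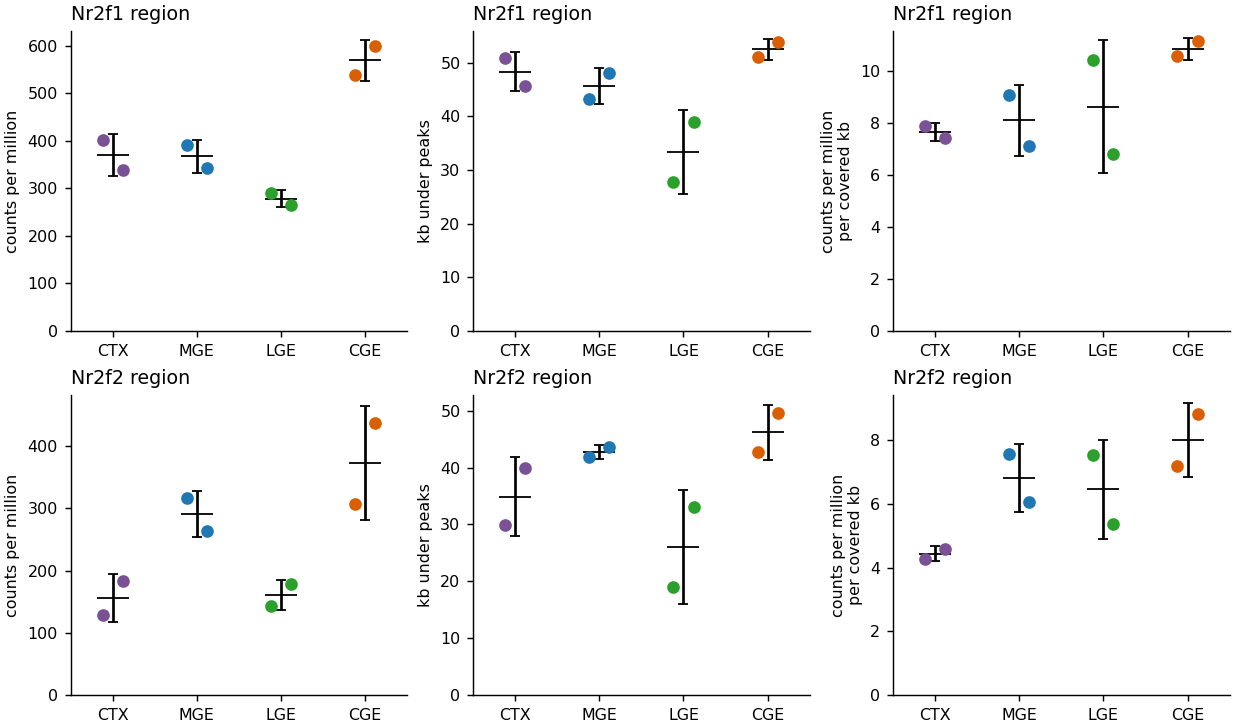
CPM (left), kb under peaks (middle) and CPM per covered kb (right) of the Nr2f1 domain (top) and the Nr2f2 domain (bottom), by region. Points are samples, the black dash is the mean and the bars 1 SD (n = 2); the 2 CGE samples lie highest for Nr2f1 CPM at 540 and 600, and the 2 CTX samples lie lowest for Nr2f2 CPM per covered kb at 4.27 and 4.60.

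The 7 elements with a peak in all 8 samples, 2 for Nr2f1 and 5 for Nr2f2, were tested by edgeR among all 68274 such regions. Calls were made at 0.05 after adjustment for all regions tested (Benjamini-Hochberg). For CTX against GE 1 of the 7 was called, against 14.9% of all regions. For CGE against MGE 1 was called, against 9.00%. For LGE against MGE 2 were called, against 10.5%. For CGE against LGE 0 were called, against 0.00293% (2 of 68274). In these contrasts, in the order given, 3, 4, 6 and 4 of the 7 had an unadjusted p under 0.05. So did 19274, 16332, 16448 and 8258 of all 68274 regions. DESeq2 called 2, 4, 6 and 4 of the 7 in the same order, against 23.1%, 16.0%, 16.7% and 4.03% of all regions. Where a library of a compared region is left out below, that arm is 1 sample, assumed to vary like the other groups, which then supply the spread. Without CTX replicate 1 the CTX arm is the E14.5 library alone, and region and age cannot be told apart. With 7 members, counts of 1 or 2 calls are too few to be set apart from these backgrounds, and an exact permutation of 2 against 2 samples could not give a p below 0.333. The eminence contrasts share samples.

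Neither domain was called in any contrast by edgeR with TMM scaling of library sizes, all libraries and no replicate block. With total counts as library size instead, both tested Nr2f1 elements, and so the Nr2f1 domain, were called in LGE against MGE. That scaling also called an Nr2f1 element in CGE against MGE and in CGE against LGE, and Nr2f2 elements in LGE against MGE. Whether these calls include the domains is not given here. The share of all regions called under that scaling, or in the block and leave-one-out fits below, is not given either. The Nr2f1 domain was 1.04 higher in CGE than in LGE on the log2 scale (SE 0.14, adjusted p = 0.0951) and 0.57 higher in CGE than in MGE (SE 0.14, adjusted p = 0.050005, just above the threshold). The Nr2f2 domain was 1.22 higher in CGE than in LGE (SE 0.24, adjusted p = 0.134) and 0.30 higher than in MGE (SE 0.24, adjusted p = 0.495). LGE against MGE gave -0.48 for Nr2f1 (adjusted p = 0.0793) and -0.92 for Nr2f2 (adjusted p = 0.0524). With an offset for the covered length, CGE against LGE gave 0.34 for Nr2f1 (adjusted p = 0.341) and 0.33 for Nr2f2 (adjusted p = 0.378), LGE against MGE gave 0.01 and -0.16, and CGE against MGE gave 0.36 for Nr2f1 (adjusted p = 0.317). The Nr2f2 value for LGE against MGE was called without LGE replicate 2 (adjusted p = 0.0494), CGE replicate 1 (0.0274) or CGE replicate 2 (0.0368), and its CGE against MGE value was -0.04 without CGE replicate 2. With the replicate number as a block, edgeR called Nr2f1 in CGE against MGE (0.56, adjusted p = 0.0435) and Nr2f2 in LGE against MGE (-0.95, adjusted p = 0.0378). DESeq2 called CGE against LGE and LGE against MGE for both domains and CGE against MGE for Nr2f1, without that offset.

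For CTX against GE the Nr2f2 domain gave -0.51 (SE 0.20, adjusted p = 0.153 by edgeR) and the Nr2f1 domain 0.18 (SE 0.13, adjusted p = 0.430). The Nr2f2 value was nearly as large per covered length, at -0.43 (SE 0.16, adjusted p = 0.139). The Nr2f1 value turned to -0.01 with the covered-length offset and to -0.07 without TMM scaling, and to -0.02 without CTX replicate 1, so it has no direction that holds. TMM is the edgeR scaling of library sizes, and leaving it out moved the median of all regions by -0.24 on the log2 scale in this contrast. The covered-length offset moved that median by -0.09 here, -0.25 in CGE against LGE, -0.10 in CGE against MGE and 0.16 in LGE against MGE.

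**Figure D3:**
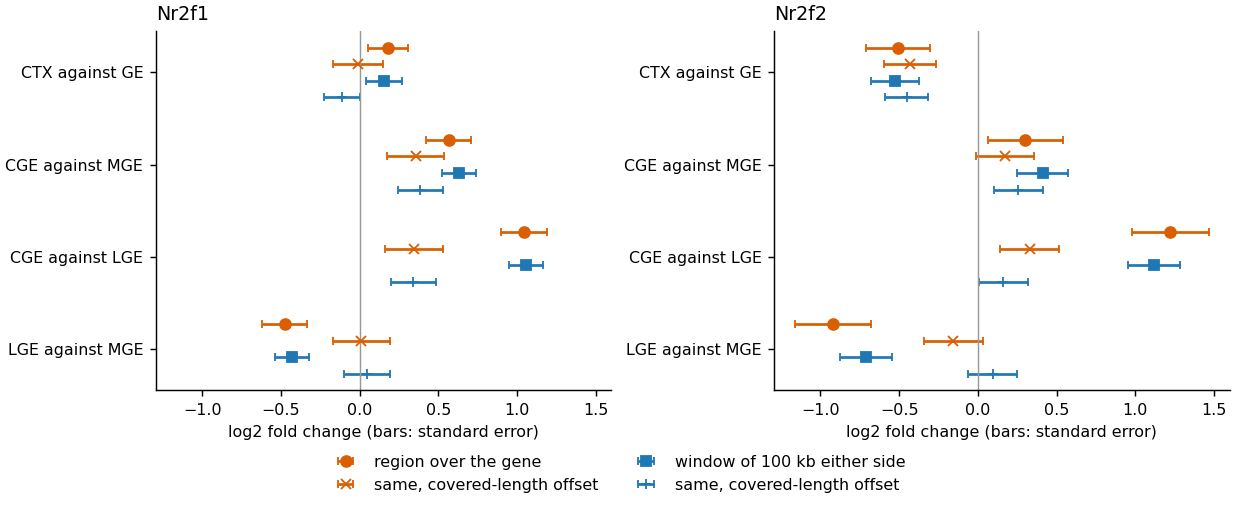
Log2 fold changes of the domain and of the whole window of 100 kb either side for Nr2f1 (left) and Nr2f2 (right) in 4 contrasts, with and without an offset for covered length; bars are standard errors. Values for CGE against LGE fall from 1.04 to 0.34 (Nr2f1) and from 1.22 to 0.33 (Nr2f2) in the domains once the offset is used.

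The proximal upstream element of Nr2f2 (chr7:70380686-70382517, 13951 bp upstream of the 5′ end) was lower in CTX than in GE. CTX held 8.29 and 5.09 CPM, MGE 12.3 and 15.8, LGE 18.8 and 18.8, and CGE 21.1 and 26.4. The CTX samples were below all 6 GE samples. CGE was highest in CPM but not per covered kb, where LGE held 18.3 and 17.4 and CGE 16.0 and 14.4. The log2 fold of CGE against LGE turned from 0.35 to -0.24 with the covered-length offset. Under that offset the median of all regions in this contrast was -0.26, so the element lay close to it. The edgeR log2 fold of CTX against GE was -1.21 (SE 0.28, adjusted p = 0.0298). The covered-length offset brought it to -0.88 (adjusted p = 0.0317). Leaving out the E14.5 sample, so that every library was E12.5, gave -0.85 with an adjusted p of 0.0523. The call was made with the E14.5 library as the only CTX sample (adjusted p = 0.0032) and was lost without any other library (adjusted p from 0.0523 to 0.0872). With the replicate number as a block the call was lost (-1.21, adjusted p = 0.0518). No contrast between eminences was called for this element by edgeR with TMM scaling and no replicate block.

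The distal upstream element of Nr2f2 (chr7:70423370-70424907, 56635 bp upstream) was lower in MGE than in the other eminences. MGE held 7.13 and 10.5 CPM, LGE 20.7 and 17.2, and CGE 22.4 and 21.6, with no overlap between MGE and the other 4. The CTX samples differed widely, at 13.8 CPM at E12.5 and 25.0 at E14.5, and CTX against GE was called only with the E14.5 library as the lone CTX sample (0.87 on the log2 scale, adjusted p = 0.0232). The edgeR log2 fold was 1.25 for CGE against MGE (SE 0.23, adjusted p = 0.0171) and 1.03 for LGE against MGE (SE 0.23, adjusted p = 0.0293). Set per covered length these became 0.66 and 0.67, and both calls ended (adjusted p = 0.0762 and 0.0649). The CGE call was lost without CGE replicate 1 (adjusted p = 0.0705) or CGE replicate 2 (0.0813). The LGE call held only without MGE replicate 2 (0.01) or CGE replicate 2 (0.0480), and was 0.0512 to 0.120 without each other library. For LGE against MGE the Nr2f2 domain had the opposite sign, at -0.92 (not called, and -0.16 per covered length), whereas for CGE against MGE both were positive.

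The element in the Fam172a intron (chr13:78099350-78101233, 98524 bp downstream of the 5′ end of Nr2f1) was lower in LGE than in MGE. LGE held 5.91 and 4.93 CPM and MGE 13.0 and 21.2, with no overlap. CGE held 10.9 and 9.59 CPM and CTX 11.4 and 19.9. The edgeR log2 fold of LGE against MGE was -1.74 (SE 0.27, adjusted p = 0.00883), or -1.21 per covered length (adjusted p = 0.0047). This call was made with each of the 6 eminence libraries left out, 4 of which leave an arm of 1 sample, at adjusted p from 0.0111 to 0.0325. With an arm of 1 sample, CGE against MGE was called without MGE replicate 1 (-1.16, adjusted p = 0.0257), and CTX against GE without CTX replicate 1 (1.19, adjusted p = 0.0119), which sets E14.5 against E12.5. With all 8 samples in the model the 3 calls between eminences missed the threshold, at adjusted p of 0.0802 here, 0.135 for CGE against MGE and 0.188 for LGE against MGE at the distal Nr2f2 element.

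**Figure D4:**
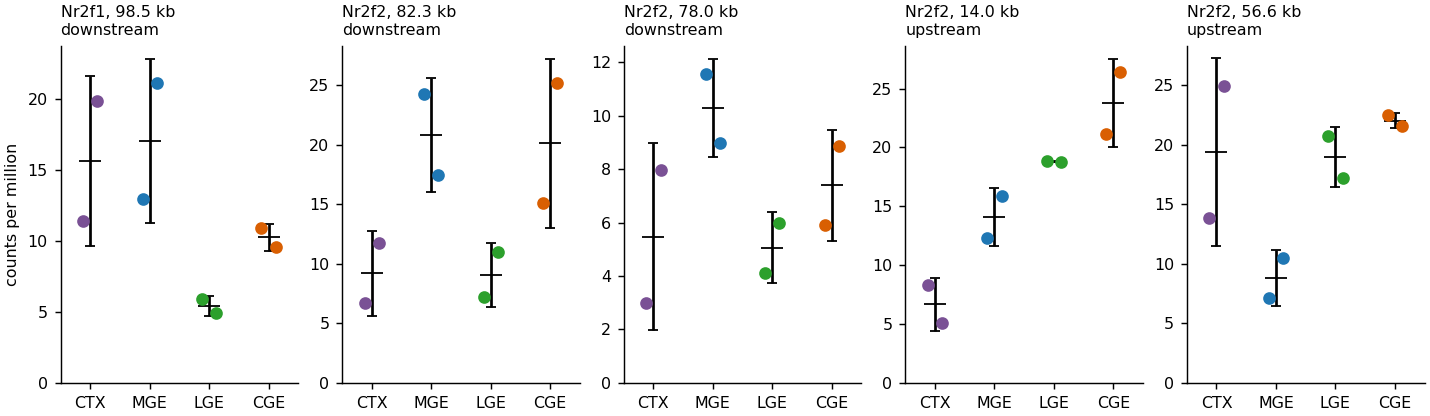
CPM by region in the 5 elements outside the gene bodies that had a peak in all 8 samples; titles give the gene and the distance in kb from its 5′ end. Points are samples, dashes means and bars 1 SD (n = 2), and CTX is lowest 13951 bp upstream of Nr2f2 (5.09 and 8.29), MGE is lowest 56635 bp upstream (7.13 and 10.5), and LGE is lowest in the Nr2f1 panel (4.93 and 5.91).

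A pair of elements downstream of Nr2f2 lay in the RNA gene Gm29683. The first (chr7:70279100-70284455, 82280 bp downstream) held 24.2 and 17.4 CPM in MGE and 15.1 and 25.2 in CGE, against 7.21 and 11.01 in LGE and 6.68 and 11.7 in CTX. The second (chr7:70285094-70288779, 77956 bp downstream) held 11.6 and 8.98 CPM in MGE, 5.92 and 8.87 in CGE, 4.12 and 5.99 in LGE and 3.00 and 7.95 in CTX. In the first element both MGE and both CGE samples were above all LGE and CTX samples, as in the domain, whereas in the second the regions overlapped apart from MGE, which was highest. Neither was called by edgeR with TMM scaling, all libraries and no replicate block. The first was called for LGE against MGE without CGE replicate 1 (-1.25, adjusted p = 0.0432) or LGE replicate 2 (-1.66, adjusted p = 0.0391). DESeq2 called both for LGE against MGE (adjusted p = 0.00454 and 0.0177) and the first for CGE against LGE (0.0368). With the covered-length offset the LGE against MGE values moved from -1.25 to -0.11 and from -1.09 to -0.17.

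The other 33 elements were small and were called in 1 to 7 samples. A single sample held 8 of the 17 Nr2f1 elements and 9 of the 23 Nr2f2 elements (47.1% and 39.1%, against 36.3% of all merged regions). Peaks in all 8 samples were found for 11.8% and 21.7% of the elements, against 23.3% of all merged regions. The element chr13:78091860-78092487 in Fam172a had a peak in every sample except MGE replicate 1, at 0.98 to 2.75 CPM. One element, chr13:78098305-78098654 in Fam172a, had a peak in both CTX samples and in no other, as 3.14% of all merged regions did, at 0.69 and 0.03 CPM. An element 8448 bp upstream of Nr2f2 (chr7:70375183-70377704), singled out after its values were seen, had a peak in both MGE and both CGE samples and in no LGE or CTX sample. It held 0.93 and 1.19 CPM in MGE and 1.91 and 5.08 in CGE, and 0.266% of all merged regions shared this pattern.

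Summed over the whole window of 100 kb either side, the domains dominated, with 93.2% to 97.6% of the counts around Nr2f1 and 73.8% to 84.9% around Nr2f2. Peaks over Fam172a alone held 51.1 to 118 CPM in 7 samples and 12.9 CPM in CGE replicate 2, whose single peak joined both genes. Peaks over Nr2f1 but not Fam172a held 385 CPM in CGE replicate 1, 338 and 234 in CTX, 283 and 253 in MGE and 161 and 145 in LGE. Where the domain was split, some of its pieces overlapped neither gene. Peaks over neither gene held 83.8 and 77.8 CPM in LGE and 2.07 to 71.4 CPM in the other samples.

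Neither member's window was called in any contrast by edgeR with TMM scaling and all libraries. With total counts as library size, the Nr2f2 window was called in CTX against GE. Of the windows of all protein-coding genes, the TMM fit called 7.39% of 20510 for CTX against GE. Of 20372 tested between eminences it called 0.103% for CGE against MGE, 0% for CGE against LGE and 0.108% for LGE against MGE. The Nr2f1 window gave 1.06 for CGE against LGE (SE 0.11, adjusted p = 0.0874) and 0.63 for CGE against MGE (SE 0.11, adjusted p = 0.114). The Nr2f2 window gave 1.12 for CGE against LGE (SE 0.17, adjusted p = 0.374), 0.41 for CGE against MGE (SE 0.16, adjusted p = 0.383) and -0.53 for CTX against GE (SE 0.15, adjusted p = 0.0729). LGE against MGE gave -0.43 for Nr2f1 and -0.71 for Nr2f2. Set per covered length, the CGE against LGE values fell to 0.34 and 0.16, and those for LGE against MGE turned to 0.046 and 0.095. That offset moves windows in general, with a median of all windows of -0.35 for CGE against LGE and 0.21 for LGE against MGE. Both genes thus stayed above the median window in the first contrast and below it in the second. Leaving out 1 library brought some windows past the threshold in edgeR, in several cases with an arm of 1 sample. The share of all windows called in those fits is not given here, so these calls are not set against a background. For CGE against LGE this held without LGE replicate 1 (adjusted p = 0.00157 for Nr2f1 and 0.00787 for Nr2f2), LGE replicate 2 (0.0179 and 0.000325) or CGE replicate 1 (0.0199 and 0.0156). For CGE against MGE it held for Nr2f1 without LGE replicate 1 (0.0121) or LGE replicate 2 (0.0137). For Nr2f2 it held in LGE against MGE without LGE replicate 2 (0.0119), CGE replicate 1 (0.0314) or CGE replicate 2 (0.0249), and in CTX against GE without the E14.5 sample (0.0321). At an unadjusted p under 0.05 both windows passed in each of the 3 eminence contrasts, and Nr2f2 alone in CTX against GE. Of all windows, 2547, 542 and 2080 of 20372 passed it in CGE against MGE, CGE against LGE and LGE against MGE, and 4393 of 20510 in CTX against GE. DESeq2 called Nr2f2 in CTX against GE (12.4% of windows), Nr2f1 in CGE against MGE (2.86%), and both in CGE against LGE (0.107%) and LGE against MGE (2.54%).

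Counts in the domains were also read in single nuclei. After each nucleus was thinned to 5000 counts, leaving out 102 to 760 shallower nuclei per sample, 81.3% and 84.3% of CGE nuclei had a count in the Nr2f1 domain. The share was 75.5% and 68.1% in CTX, 70.1% and 62.4% in MGE and 60.2% and 59.7% in LGE. For Nr2f2 it was 62.7% and 74.5% in CGE, 62.0% and 56.9% in MGE, 39.3% and 47.4% in LGE and 37.2% and 49.3% in CTX. Exact Clopper-Pearson 95% intervals were at most 3.40 percentage points wide and cover counting error only. Without thinning the shares ran from 71.9% to 92.3% for Nr2f1 and from 55.8% to 86.6% for Nr2f2. The tenth of nuclei with the most counts held 27.8% to 38.8% of the thinned Nr2f1 counts and 31.1% to 47.6% of the Nr2f2 counts of a sample. CGE was highest for both genes, but for Nr2f2 the intervals of CGE replicate 1 and MGE replicate 1 overlapped. Their mean thinned counts ran the other way, at 1.48 and 1.55. LGE was lowest for Nr2f1, and the shares carry the same difference in covered length as the sums. No cell class was separated, so the share in nuclei that lack either gene was not measured.

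Nuclei with a count in the Nr2f1 domain more often had one in the Nr2f2 domain too. At 5000 counts, 77.6% of Nr2f1-positive nuclei of CGE replicate 2 had a Nr2f2 count, against 58.0% of the Nr2f1-negative nuclei, the widest gap of the 8 libraries. CGE replicate 1 had 64.5% against 54.5%. In MGE the shares were 65.5% against 53.8% in replicate 1 and 62.9% against 46.9% in replicate 2. The gap was smallest in LGE, with 40.5% against 37.5% in replicate 1 and 49.2% against 44.7% in replicate 2. CTX had 39.0% against 31.6% in replicate 1 and 51.4% against 44.9% in replicate 2. The sign was the same in all 8 libraries, and nuclei of a library are not replicates. No other pair of regions was read in this way, so whether the gap is particular to these domains was not tested.

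**Figure D5:**
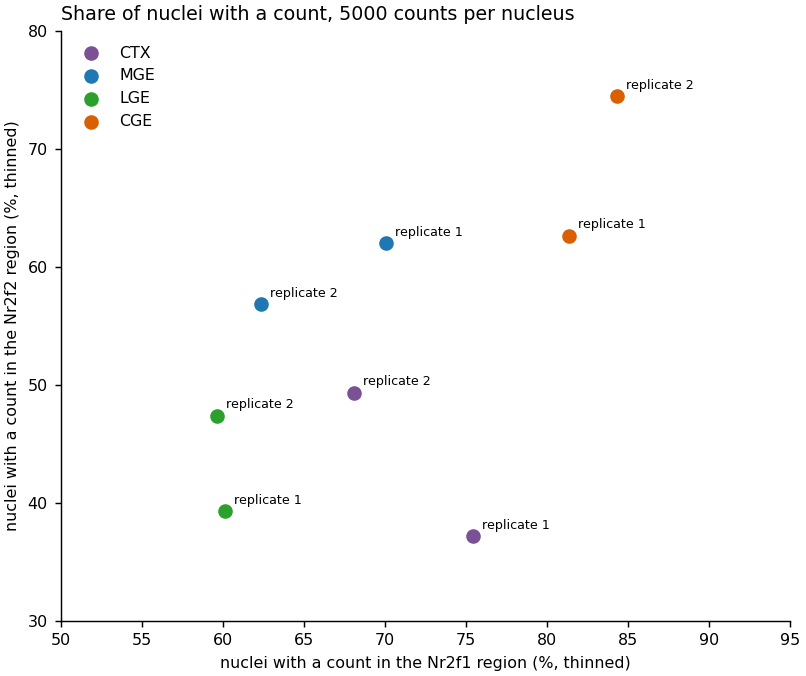
Share of nuclei with at least 1 count in the Nr2f1 domain (x axis, %) and in the Nr2f2 domain (y axis, %), each nucleus thinned to 5000 counts; each point is 1 sample, coloured by region. CGE lies at the top right, MGE at 62.0% and 56.9% for Nr2f2, LGE at the left and CTX replicate 1 at the bottom, with 75.5% for Nr2f1 and 37.2% for Nr2f2.

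Counts over the gene body and the 2000 bp upstream gave no edgeR call for either gene in any contrast, against 4.30% of genes for CTX against GE, 0.111% for CGE against MGE, 0.0117% for CGE against LGE and 0.134% for LGE against MGE. At an unadjusted p under 0.05, edgeR passed 1, 1, 2 and 2 of the 2 genes in these contrasts, beside 3178 of 17356 genes for CTX against GE and 1706, 657 and 1568 of 17145 between eminences. DESeq2 called neither gene for CTX against GE (14.7% of genes), Nr2f1 for CGE against MGE (3.32%), and both for CGE against LGE (0.691%) and LGE against MGE (3.45%). These sums count whole peaks, so CGE replicate 2 brought in its full domains. With the covered-length offset the CGE against LGE values fell from 1.73 to 0.03 for Nr2f1 and from 1.84 to 0.03 for Nr2f2. In this contrast the offset also moved the median of all regions by -0.25 and that of all windows by -0.34. The median of all genes under it is not given here, so 0.03 is not set against a background. Across the 8 samples the profiles of the 2 genes had a Pearson r of 0.761 on log2(CPM + 1), as a description over samples that share their peak calling. Of 17886 genes, Nr2f2 ranked 48 by r to Nr2f1, and Nr2f1 ranked 113 by r to Nr2f2. Most like Nr2f1 were 2210408I21Rik (r = 0.896), Fam183b, Orm3, Mpo and Rph3a. Orm3 was listed at 0 CPM in both LGE samples and reached 0.957 CPM at most. Fam183b and Mpo reached 4.80 and 2.70 CPM at most. Most like Nr2f2 were Pced1b (r = 0.952), Cela2a, Insl3, Sycp1 and Apoa4. The last 4 of these were listed at 0 CPM in at least 1 sample, and Insl3 reached 10.97 CPM in CGE replicate 2.

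Genes tied to COUP-TFs by family, partnership or regional role gave calls only for CTX against GE in the edgeR test, where 592 of all 17356 genes were called higher and 154 lower (4.30% in all). Of 6 partners and relatives, Bcl11a (0.63 on the log2 scale, adjusted p = 0.0333), which encodes a zinc finger protein that binds COUP-TFs, and Zfpm2 (1.07, adjusted p = 0.0490), a GATA and COUP-TF cofactor, were higher in CTX, 0 were lower, and the list median was -0.01. Of 6 patterning genes, Emx2 (1.18, adjusted p = 0.0247) and Lhx2 (0.74, adjusted p = 0.0317), homeobox genes of the pallium, were higher, 0 were lower, and the median was 0.57. Of 8 CGE-linked genes, Htr3a (2.31, adjusted p = 0.0208), a serotonin receptor gene of CGE-derived interneurons, was higher in CTX, 0 were lower, and the median was 0.56. The median of all 17356 genes was -0.02. All 5 calls ended with the covered-length offset, under which Bcl11a (-0.12) and Zfpm2 (-0.06) turned negative. Htr3a (1.39), Emx2 (0.55) and Lhx2 (0.05) stayed positive under it. The median of all genes with the offset is not given here.

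Between eminences 0 genes of the 3 lists were called by edgeR. At an unadjusted p under 0.05 the partners gave 3, 0 and 0 genes in CGE against MGE, CGE against LGE and LGE against MGE, the patterning genes 3, 0 and 4, and the CGE-linked genes 1, 0 and 2. Of all 17145 genes tested, 1706, 657 and 1568 passed that threshold. DESeq2 called 1, 0 and 0, then 2, 0 and 2, then 0, 0 and 2, against 3.32%, 0.691% and 3.45% of all genes. Medians of the lists lay between -0.34 and 0.14 on the log2 scale.

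Motif counts, summed over nuclei for 579 motifs, included 4 of the COUP-TF family: NR2F1, NR2F2, Nr2f6 and Nr2f6 variant 2. The NR2F1 motif took 0.319 and 0.325 per 1000 motif counts in CTX, 0.381 and 0.365 in MGE, 0.321 and 0.305 in LGE and 0.327 and 0.352 in CGE. The NR2F2 motif took 0.357 and 0.370 per 1000 in CTX, 0.450 and 0.335 in MGE, 0.323 and 0.361 in LGE and 0.301 and 0.388 in CGE, with all regions overlapping. Neither was highest in CGE. Of the 4 motifs 0 were called by edgeR in any contrast, as were 0% of all 579, and 1 (NR2F1, LGE against MGE, -0.22 on the log2 scale) had an unadjusted p under 0.05 in any of the 4 contrasts, where 25 of the 579 motifs did in LGE against MGE. DESeq2 also called 0 of the 4, against 18.8%, 1.21%, 2.42% and 0.864% of motifs in CTX against GE, CGE against MGE, CGE against LGE and LGE against MGE, and gave Nr2f6 variant 2 no adjusted p for CTX against GE.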

How the data were processed

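Single-nucleus ATAC-seq libraries of 8 samples were analysed as deposited. Per the labels, the authors processed reads with Cell Ranger ATAC 1.2.0 on GRCm38 (mm10), and the deposited matrices hold raw counts per peak and barcode and raw counts per motif and barcode. Peaks had been called in each sample alone, most counts are even numbers, and the sources used here do not give the barcode filter. All 39253 barcodes were kept, and doublets were not removed.

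Counts were summed over nuclei per sample. Peaks sharing at least 1 base were merged, and the 68274 regions with a peak in all 8 samples were tested, as were summed peaks over each protein-coding gene of GENCODE M21 (body and 2000 bp upstream; window of 100 kb either side) and 579 motifs. Tests used edgeR 4.0.16 (glmQLFit, glmQLFTest, TMM, filterByExpr) in R 4.3.3, with DESeq2 1.42.0 as an alternative, and Benjamini-Hochberg adjustment over all features of a kind. CTX was set against the mean of the eminences in a model of 8 samples. Eminences were compared in a model of 6. The covered-length offset divides by the bases under the sample's own peaks. The fits were also run on simulated counts with a fixed dispersion and no differences in covered length, which cannot speak to effects of peak calling. CPM values are scaled to 1000000 counts in peaks of the sample, with 77387940 to 138873845 such counts per library. Sequences were read from RefSeq GRCm38.p6.

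The members, lists, motifs and models were chosen with earlier results of these data known. Named by rule were elements over a start site, the called elements with the smallest adjusted p (up to 3 per gene and contrast), the 3 with the highest mean CPM per gene, up to 3 with peaks in both samples of 1 region only, and the 5 genes with the highest correlation to each member. The merging without each library, the filling of uncovered bases, the values per covered kb and some fits of gene sums and motifs were added after the data were seen. Alternatives were another normalization, filter, offset, width, replicate block and each library left out.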

Additional observations from a re-analysis of the deposited data

How the results depend on the processing

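Calls of elements, in the order CTX against GE, CGE against MGE, CGE against LGE and LGE against MGE, were 0, 0, 0 and 1 for Nr2f1 and 1, 1, 0 and 1 for Nr2f2. DESeq2 gave 1, 2, 2 and 2 for Nr2f1 and, in the eminence contrasts, 2, 2 and 4 for Nr2f2. Total counts as library size gave 1, 1 and 2 between eminences for Nr2f1, and 3 in LGE against MGE for Nr2f2. All 8 samples in the model left 0 of the calls between eminences. Windows of 50 kb also held 0 of them, by construction, since the elements called between eminences lie farther out. The covered-length offset left 0 for Nr2f2 in CGE against MGE and LGE against MGE, and a peak in at least 2 samples left 0 for Nr2f2 in CTX against GE and CGE against MGE. With 1 library left out, counts were 0 to 1 for Nr2f1 in CTX against GE and CGE against MGE, and for Nr2f2 0 to 2 in CTX against GE, 0 to 1 in CGE against MGE and 0 to 2 in LGE against MGE. Apart from DESeq2, the share of all regions called in these alternative fits is not given here. Their counts are therefore not set against a background.

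No label ties equal replicate numbers to a shared animal or batch. Correlations of same-numbered deviations over regions ran from -0.04 to 0.45 and were not above 0.1 in every pair, so the numbers were not taken as pairs, although 3 of the 6 correlations were above 0.1 and the share of odd counts differed by number. The replicate block gave 1 call for Nr2f1 in CGE against MGE, and for Nr2f2 0 in CTX against GE and 2 in LGE against MGE. The share of all regions called with the block is not given here.

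DESeq2 called 6 windows that edgeR with TMM scaling and all libraries did not. For Nr2f1 these were at 0.62, 1.06 and -0.44 between eminences. For Nr2f2 they were at -0.53 (CTX against GE), 1.12 (CGE against LGE) and -0.72 (LGE against MGE). Total counts brought the Nr2f2 window in CTX against GE to a call at -0.69. Signs turned for the Nr2f1 window in CTX against GE, at -0.021 with total counts and -0.11 with the offset. They also turned for LGE against MGE with the offset, at 0.046 for Nr2f1 and 0.095 for Nr2f2. These settings moved the median of all windows too, by -0.17 (total counts) and -0.23 (offset) in CTX against GE. In LGE against MGE the offset moved it by 0.22. With 1 library left out, windows of Nr2f1 ran from -0.044 to 0.33 (CTX against GE), 0.56 to 0.70 (CGE against MGE), 0.99 to 1.13 (CGE against LGE) and -0.50 to -0.36 (LGE against MGE). Those of Nr2f2 ran from -0.72 to -0.36, 0.15 to 0.63, 0.86 to 1.35 and -0.83 to -0.60.

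Gene sums turned sign with the offset for Nr2f1 in CTX against GE (-0.13) and LGE against MGE (0.36) and for Nr2f2 in LGE against MGE (0.089), and with 1 library left out the Nr2f1 gene ran from -0.10 to 0.64 in CTX against GE. The Nr2f1 domain turned sign in CTX against GE with total counts (-0.065) and the offset (-0.011), in LGE against MGE with the offset (0.010), and ran from -0.016 to 0.37 in CTX against GE with 1 library left out. The Nr2f2 domain ran from -0.039 to 0.60 in CGE against MGE. In CGE against LGE the offset gave -0.24 for the proximal and -0.016 for the distal upstream element of Nr2f2. The offset moved the median of all regions by -0.25 in that contrast and by 0.16 in LGE against MGE. Total counts moved it by -0.24 in CTX against GE. The causes were not tested. The relation of domain values to depth was not tested, and elements under 1 CPM rest on few counts.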
